A study of Mus musculus with 6 samples.

Results

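The apical ectodermal ridge (AER) was represented by 220 of the 26486 cells of 6 single-cell RNA-seq libraries from mouse limb buds at E11.5. Members were all cells called AER in the annotation that the authors deposited with their count matrices. With the limit of over 2000 detected genes per cell, 205 ridge cells of 24891 cells were left. They came from Dup hindlimbs (25 cells), C57BL/6 wild-type hindlimbs (16), Inv1 hindlimbs (82), G4 wild-type hindlimbs (33), Inv1 forelimbs (39) and G4 wild-type forelimbs (10).

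The ridge is a strip of thickened epithelium that runs along the distal margin of the limb bud, where the dorsal and the ventral ectoderm meet. It secretes fibroblast growth factors (FGFs), which keep the mesenchyme below it growing, and is itself maintained by canonical WNT signals, by BMP signals and by transcription factors of the Sp, Dlx, Msx and p63 families. Failure of the central ridge is the classical explanation of split hand and foot malformations.

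The study compared limb buds of mice that carry rearrangements of the Lbx1/Fgf8 locus with wild-type buds of the same background. Dup embryos were homozygous for a duplication modelled on those of patients, which span Lbx1, Btrc, Poll, Dpcd and Fbxw4 and leave out Fgf8, and their strain label, c57bl6.J, was that of the wild-type hindlimb they were compared with. Inv1 embryos were homozygous for an inversion through which the Lbx1 domain gained the ridge enhancers of Fgf8, and both they and their wild type carried the strain label G4 ESC, a 129 and C57BL/6 hybrid embryonic stem cell line. Each of the 6 groups was 1 library, and no source used here gives the number of embryos in a library. The methods state that mutant mice came from edited stem cells by diploid or tetraploid aggregation, after which lines were bred with C57BL/6 animals, without saying which route gave the embryos sequenced here.

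Ridge UMIs (counted mRNA molecules) were summed per gene within each library and scaled to CPM, the UMIs of a gene per 1000000 UMIs of the ridge. These totals ran from 72663 UMIs in G4 forelimbs to 664735 in Inv1 hindlimbs, so that 1 UMI was worth 13.8 CPM at the shallow end and 1.51 CPM at the deep end. With 1 library per group there was no test between groups. Brackets hold exact 95% intervals (Poisson for a level, Clopper-Pearson for a share of cells, conditional binomial for a ratio), which cover counting error only. Differences over all genes were measured as log2 ratios after adding 50 CPM to both sides, which shrinks the ratio of genes with low levels, and a gene was counted when this ratio reached 2-fold.

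The AER label was set beside 5 ridge markers. They were Sp8 and Sp6, zinc finger factors of the ridge, Rspo2, an enhancer of WNT signalling, Igfbpl1, an IGF-binding-like protein, and Dlx2, a homeobox factor. The label came from clusters of the same cells, and the markers were chosen with earlier results of these data known. Their counts therefore describe the class and do not test the label. A UMI of 3 or more of these 5 markers was found in 24 of 25 ridge cells of Dup, 16 of 16 of C57BL/6, 76 of 82 of Inv1 hindlimbs, 33 of 33 of G4 hindlimbs, 39 of 39 of Inv1 forelimbs and 6 of 10 of G4 forelimbs. The G4 forelimb class was therefore the smallest and the least marked, and no ridge cell lacked all 5 markers. Fgf8 was left out of these counts because the study used it, with En1, to name the class. Fgf8 stood at 2574 to 7315 CPM in the ridge of Dup and the 3 wild-type libraries, at 37.6 CPM in Inv1 hindlimbs and at 10.3 CPM in Inv1 forelimbs. In the hindlimb annotation that the authors made separately, all 82 Inv1 and 33 G4 ridge cells were again AER, with 11 and 3 more cells that the joint annotation had as keratinocytes.

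Ridge cells with many mesenchyme markers were unevenly spread over libraries. In the C57BL/6 wild-type library, 4 of 16 ridge cells held a UMI of 10 or more of 16 mesenchyme markers, and these 4 cells held 111196 of the 196580 ridge UMIs (56.6%), with a median of 23797 UMIs per cell against 6681.5 in the other ridge cells. The limit of 10 markers was also reached by 1 of 25 Dup ridge cells, with 9667 UMIs, and by 0 cells of the G4 and Inv1 libraries. A cell with more UMIs reaches this limit more easily, and the number of such cells was not recomputed at equal depth. Summed mesenchyme markers reached 26.2% (G4 hindlimbs) to 59.2% (G4 forelimbs) of their level in mesenchyme. C57BL/6, at 42.4%, and Dup, at 37.4%, lay within this range. Pdgfra and Col1a2 made up much of this sum. The defining factors of limb mesenchyme were low: Prrx1 stood at 3.72 to 96.7 CPM in the ridge against 419 to 680 CPM in mesenchyme, and Twist1 at 3.72 to 117 CPM against 258 to 395 CPM, with the C57BL/6 ridge highest for both. Muscle markers reached 0.338% to 10.5% of their own class level, periderm markers 2.05% to 6.49%, endothelial markers 0.479% to 1.58% and immune markers 0% to 0.630%. Genes of the erythroid list, mostly haemoglobins, summed to 852 to 3927 CPM in the ridge and 587 to 2304 CPM in the ectoderm, higher in the ridge in all 6 libraries, and their part in the results was not tested. The endothelial genes Cdh5, Kdr, Tie1 and Pecam1, the leukocyte gene Ptprc and the neural crest genes Sox10 and Foxd3 were at 0 UMIs in the ridge. Across libraries 92 cell barcodes were shared, none of them by AER cells.

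The first comparison asked what sets the ridge apart from the rest of the limb surface, by placing it beside the cells labelled as dorso-ventral ectoderm, 301 cells in all and 11 to 95 per library. Both labels came from clusters of the same cells, so these differences describe the classes and were not tested. The ridge held far more Igfbpl1, Bambi, Bmp4, Itm2b, Rspo2 and Wnt5a, and far less Cxcl14, Krt14, Bhlha9, Tfap2b and Gjb2, in each of the 6 libraries. Of 3037 genes, 35 were 2-fold or more higher in the ridge in all 6 libraries (1.15%) and 10 were lower (0.329%), while the median over all genes was -0.05 on the log2 scale.

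**Figure D1:**
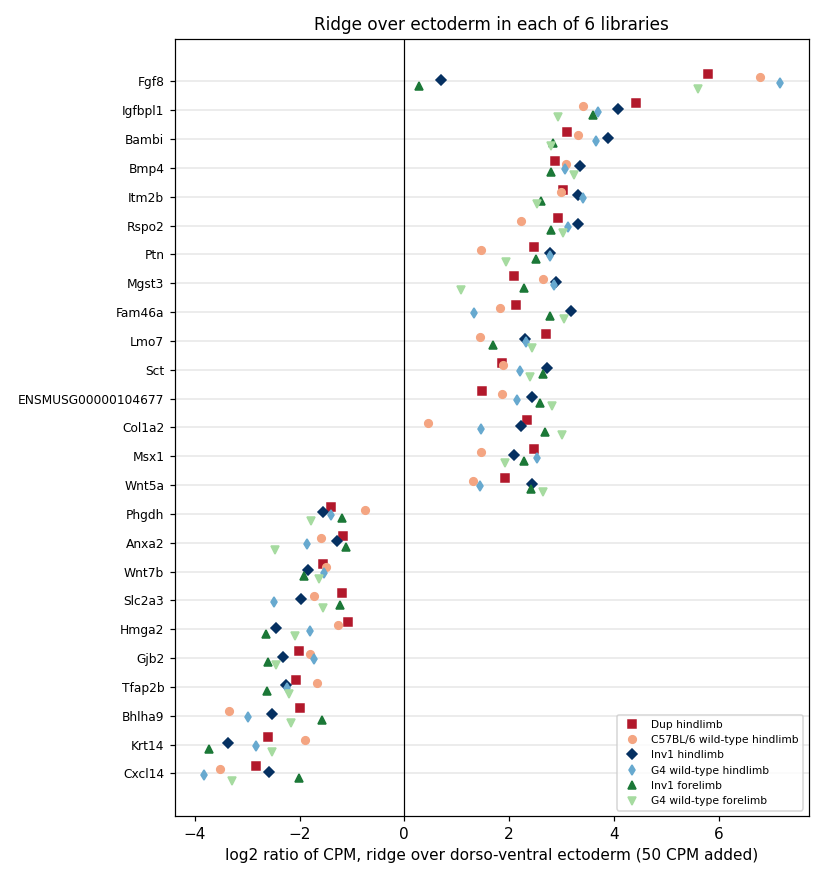
Log2 ratio of the ridge level to the dorso-ventral ectoderm level (50 CPM added to both) for the 15 highest and 10 lowest genes by the median over libraries, with 1 point per library. All points of the upper 15 genes lie right of 0 and all points of the lower 10 left of it, and Fgf8 lies at 0.70 in Inv1 hindlimbs and 0.27 in Inv1 forelimbs.

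Igfbpl1 was the clearest ridge gene other than Fgf8. Its ridge level was 1017 CPM in Dup, 483 CPM in C57BL/6, 849 CPM in Inv1 hindlimbs, 617 CPM in G4 hindlimbs, 664 CPM in Inv1 forelimbs and 330 CPM in G4 forelimbs, and its ectoderm level was 0, 0, 2.95, 1.29, 8.78 and 0 CPM in the same libraries. The classes did not overlap. The ratio was 288 in Inv1 hindlimbs, 478 in G4 hindlimbs and 75.6 in Inv1 forelimbs, and at least 173 in Dup, 29.9 in C57BL/6 and 29.3 in G4 forelimbs, where the ectoderm had 0 UMIs and a floor of 3 counts per library was used. After every cell was thinned to 4000 UMIs, 25 of 25 Dup ridge cells, 13 of 16 of C57BL/6, 79 of 82 of Inv1 hindlimbs, 25 of 33 of G4 hindlimbs, 37 of 39 of Inv1 forelimbs and 6 of 10 of G4 forelimbs kept a UMI of Igfbpl1, against at most 1 ectoderm cell in any library. Mesenchyme cells carried Igfbpl1 in 1.12% to 1.88% of cells without thinning.

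The BMP ligand gene Bmp4 and the BMP modulator gene Bambi were on the ridge side. Bmp4, the main BMP of the ridge, stood at 448 to 771 CPM in the ridge and 10.3 to 66.8 CPM in the ectoderm, with the largest ratio in G4 hindlimbs (44.3) and the smallest in Inv1 forelimbs, where Bmp4 had 764 CPM in the ridge and 66.8 CPM in the ectoderm. Bambi, a decoy receptor that dampens BMP signals, stood at 875 to 2114 CPM in the ridge and 43.2 to 195 CPM in the ectoderm. Both genes kept the ranges of the classes apart. Of 10 BMP ligands and antagonists, 4 were measured (a mean of 50 CPM or more over the classes): besides these, Bmp7 had a median log2 ratio of 0.96 and Sostdc1, a secreted antagonist of BMP and WNT, one of -0.89, lower in all 6 libraries. Bmp2 was below this level limit, with 30.5 to 151 CPM in the ridge and 0 to 9.78 CPM in the ectoderm. The 4 measured members of the BMP response list, the Id and inhibitory Smad genes, had a median of 0.13 and none was 2-fold apart.

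WNT genes split by member. Rspo2, which potentiates canonical WNT signals through LGR receptors, stood at 183 to 459 CPM in the ridge against 0 to 7.03 CPM in the ectoderm, and Wnt5a, a ligand mostly of the non-canonical branch, at 382 to 853 CPM against 69.8 to 134 CPM. Wnt6 was abundant on both sides, with 427 to 1108 CPM in the ridge and 221 to 558 CPM in the ectoderm. Wnt7b and Wnt4 lay on the ectoderm side: Wnt7b had 0 to 13.8 CPM in the ridge against 91.7 to 158 CPM in the ectoderm, and Wnt4 had a median log2 ratio of -0.87. Among 5 measured ligands and R-spondins, 2 were thus 2-fold or more higher by the median over libraries and 1 lower, beside 3.46% and 0.856% of all genes. The measured WNT targets lay on the ridge side, but a high ridge level itself helps a gene to pass the level limit. All 5 measured targets (of 9) were above 0 and 4 were 2-fold or more higher by the median: Lef1 (1.62), Notum (1.53), Axin2 (1.28) and Tcf7 (1.23), with Znrf3 at 0.93. Of the targets below the limit, Rnf43 had a median of 0.77, Nkd1 0.44, Apcdd1 0.20 and Sp5 0. The secreted inhibitor Dkk1 (58.7 to 301 CPM in the ridge, 0 to 5.27 CPM in the ectoderm) and its co-receptor Kremen1 (19.2 to 206 CPM against 0 to 33.8 CPM) were on the ridge side too.

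Most of the measured ridge transcription factors were higher in the ridge, though mostly by less than the signals. A high ridge level helped genes of this list too to pass the level limit. Of 18 listed, 12 were measured, 7 were 2-fold or more higher and 1 was lower by the median over libraries, and the list median was 1.15. Msx1 (2.18), Tbx3 (1.66), Dlx5 (1.61), Msx2 (1.39), Sp6 (1.32), Sp8 (1.20) and Dlx1 (1.11) made up the 7. Of the factors below the limit, Dlx6 had a median of 0.91, Arid3b 0.35, Tfap2c 0.18, Tbx2 0.01, Dlx3 -0.07 and Sp9 -0.34. Sp8 was 185 to 316 CPM in the ridge and 66.8 to 101 CPM in the ectoderm, so that this marker was shared with the surface and differed in amount. Trp63, which encodes the epithelial master factor p63, had a median of 0.63, and the pan-epithelial Epcam one of 0.76. The AP-2 factors went the other way: Tfap2a had a median of -0.43, and Tfap2b had 0 UMIs in 5 ridge classes and 4.52 CPM in Inv1 hindlimbs against 108 to 260 CPM in the ectoderm. The genes tied to split hand and foot malformation also split, with Dlx5 on the ridge side, Bhlha9 at 0 to 27.5 CPM in the ridge against 107 to 459 CPM in the ectoderm, and Sem1 at a median of 0.11.

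Krt14, Cxcl14 and Gjb2 were lower in the ridge, and cell cycle genes lay slightly below 0. Krt14, the keratin of the basal epidermis, stood at 3.72 to 27.5 CPM in the ridge and 156 to 956 CPM in the ectoderm. Its partner Krt5 differed less (median -0.45). Of the keratins of simple epithelia, Krt18 had a median of -0.42, higher in 1 of 6 libraries. Krt8, below the level limit, had one of 0.26, higher in 4 of 6. Krt15, which is not a keratin of simple epithelia and was also below the limit, had a median of -0.91. The chemokine gene Cxcl14 stood at 63.2 to 633 CPM in the ridge and 1279 to 2703 CPM in the ectoderm, and Gjb2, a gap junction gene, at 0 to 3.01 CPM against 116 to 255 CPM. Gja1, which encodes the gap junction protein connexin 43, was on the other side, with 432 to 1046 CPM in the ridge and 139 to 451 CPM in the ectoderm. Of the S phase list 11 of 14 genes were measured, 0 had a median above 0 and the list median was -0.52. The G2/M list behaved alike, with 13 of 16 measured, 0 above 0 and a list median of -0.53, Cdk1 at -0.69 among them. In both lists 0 genes were 2-fold lower by the median. Cdkn1a, which encodes the cell cycle inhibitor p21, was higher in the ridge (66.1 to 160 CPM against 3.76 to 37.8 CPM, median 1.40). Jun, of the immediate early list that also marks stress during dissociation, had a median of 1.02 and the list one of 0.89, and its part in the other differences was not tested.

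**Figure D2:**
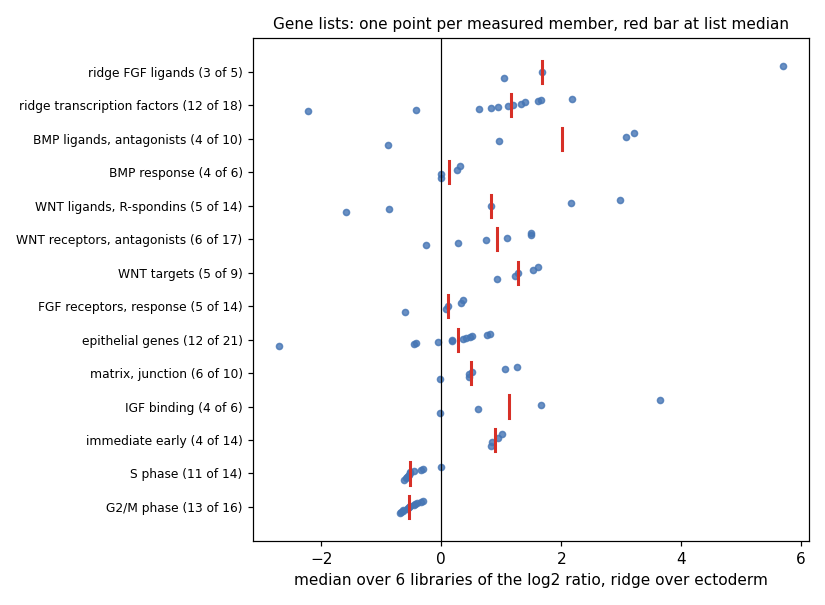
Median over 6 libraries of the log2 ratio of ridge to ectoderm for each measured member of 14 gene lists, 1 point per gene, with the list median as a red bar and the number measured of the number listed beside each name. The S phase and G2/M lists hold no gene above 0, at list medians of -0.52 and -0.53, and the WNT targets hold none below it.

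Set against all other labelled classes with 10 or more cells in a library, 16 of 3073 genes (0.521%) were 2-fold or more above the highest other class in all 6 libraries. They were Igfbpl1, Rspo2, Bmp4, Bambi, Mgst3, Lmo7, Fam46a, Aox3, Igfbp5, Sorbs2, Ssr2, Dlx5, Sh3rf1, Wnt5a, Dkk1 and the unnamed gene ENSMUSG00000104677. Igfbpl1, Rspo2, Bmp4, Igfbp5, Wnt5a and Dkk1 encode secreted proteins, and Dlx5 was the one homeobox gene. Aox3, an aldehyde oxidase known mainly from liver, was a marked member: it had 141 CPM in Dup, 112 CPM in C57BL/6, 376 CPM in Inv1 hindlimbs, 78.0 CPM in G4 hindlimbs, 333 CPM in Inv1 forelimbs and 124 CPM in G4 forelimbs, and 0 UMIs in the ectoderm of all 6. Keratinocytes were the nearest class, with 30.2 CPM of Aox3 at most, in Inv1 hindlimbs. With 100 CPM added, 7 genes exceeded all other classes, and Aox3 was not among them. Fgf8 missed this list through its levels in Inv1 (0.70 and 0.25 over the highest class), Ptn through C57BL/6 (0.88), Sct through Inv1 forelimbs (0.90) and Adamts18 through Dup (0.95). Ptn and Adamts18 were counted once ridge cells with 10 or more mesenchyme markers were left out.

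Malat1, Hmgb2 and Ptma varied most among ridge cells. In the 4 libraries with 25 or more ridge cells, the variance over cells was set against that of a Poisson draw at each cell's depth, and its median over 2978 genes was 1.09 with a 99th percentile of 3.18. This ratio grows with the level of a gene and lies near 1 for low genes whatever the cells do, so that it ranks genes of unlike level only roughly. Malat1, a nuclear RNA, had 52.4 times the Poisson variance, Hmgb2 10.9, Ptma 8.86, Ube2c 7.30, Ptn 7.0, Igfbp5 6.60, Actb 6.48, Sct 5.57, Cenpf 5.56 and H2afz 5.45. Hmgb2, Ube2c, Cenpf and H2afz rise in dividing cells, and Ptn, Igfbp5 and Sct were among the genes higher in the ridge than in ectoderm. Of the markers, Sp6 was at 1.03, Sp8 at 1.24, Dlx2 at 1.49, Rspo2 at 1.75 and Igfbpl1 at 1.96, with Dlx2 at 2.53 in G4 hindlimbs. Fgf8 had a median of 5.02 and reached 7.67 in Dup and 8.29 in G4 hindlimbs, and it was the 14th most abundant gene of the ridge outside ribosomal, mitochondrial and haemoglobin genes.

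The Inv1 ridge was then compared with the G4 ridge. In Inv1 Fgf8 is parted from its enhancers, and Lbx1 and Btrc were also higher in the ridge. The effects of these changes cannot be told apart here. In hindlimbs and forelimbs alike, the Inv1 ridge held more Fgf4, Fgf9, Cxcl14, Fzd10 and Aox3 and less Peg3, Skil, Zfp503 and Dkk1. Of 2595 genes, 6 were 2-fold or more higher in both limbs (0.231%) and 4 were lower (0.154%). The 6 were Fgf4, Cxcl14, Fzd10 and Aox3 with Lbx1 and Btrc of the rearranged locus, and the 4 were Peg3 and Zfp503 with Fgf8 and its neighbour Npm3. The median over all genes was -0.02 in hindlimbs and -0.03 in forelimbs. The limbs share no library, and each comparison rests on 1 library per genotype.

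Fgf4, which encodes a ridge FGF that in wild-type buds is found in the posterior ridge, led the higher genes outside the rearranged locus. It had 205 UMIs in the Inv1 hindlimb ridge (309 CPM, 268 to 354) against 0 UMIs in the G4 hindlimb ridge, and 87 UMIs in the Inv1 forelimb ridge (225 CPM, 180 to 277) against 0 UMIs in the G4 forelimb ridge. With the floor of 3 counts in each G4 library, Inv1 was at least 27.7-fold higher in hindlimbs and at least 5.44-fold higher in forelimbs. The Inv1 cells with a UMI of Fgf4 were 52 of 82 in hindlimbs (63.4%, 52.0 to 73.8) and 25 of 39 in forelimbs (64.1%, 47.2 to 78.8), against 0 of 33 G4 hindlimb cells (upper bound 10.6%) and 0 of 10 G4 forelimb cells (upper bound 30.8%), bounds that limit cells with a UMI and not cells that express the gene. At 4000 UMIs per cell the Inv1 shares were 51.2% and 48.7%. Fgf4 was at 0 UMIs in the ectoderm of all 6 libraries, whose cells had medians of 7454 to 13499 UMIs against 5691 to 9194 UMIs in ridge cells, and at 3 UMIs in 5384 mesenchyme cells of Inv1 hindlimbs. The other background differed from G4: the ridge of Dup had 51.2 CPM (6 of 25 cells) and that of C57BL/6 56.0 CPM (7 of 16 cells), a Dup ratio of 0.914 (0.319 to 2.50). After thinning these shares were 4 of 25 and 2 of 16 cells.

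Other ridge FGFs were also higher. Fgf9, also a ridge FGF, had 303 CPM in Inv1 against 70.6 CPM in G4 hindlimbs (ratio 4.29, 2.67 to 7.27) and 294 CPM in Inv1 against 138 CPM in G4 forelimbs (2.14, 1.12 to 4.58), the smaller difference being under 2-fold after 50 CPM was added. After thinning, Fgf9 was found in 51 of 82 Inv1 and 5 of 33 G4 hindlimb cells and in 19 of 39 Inv1 and 2 of 10 G4 forelimb cells. In the other background it was found in 8 of 16 C57BL/6 and 8 of 25 Dup ridge cells, so that the 2 wild types differed. Some Fgf9 was also present in the Inv1 ectoderm, with 16 UMIs against 2 in hindlimbs and 16 against 1 in forelimbs. Fgf3, the neighbour of Fgf4 on chromosome 7, was read only in the G4 and Inv1 matrix and had 39 UMIs in Inv1 against 0 in G4 hindlimbs and 10 in Inv1 against 0 in G4 forelimbs. Fgf17 had at most 16.6 CPM in any ridge.

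**Figure D3:**
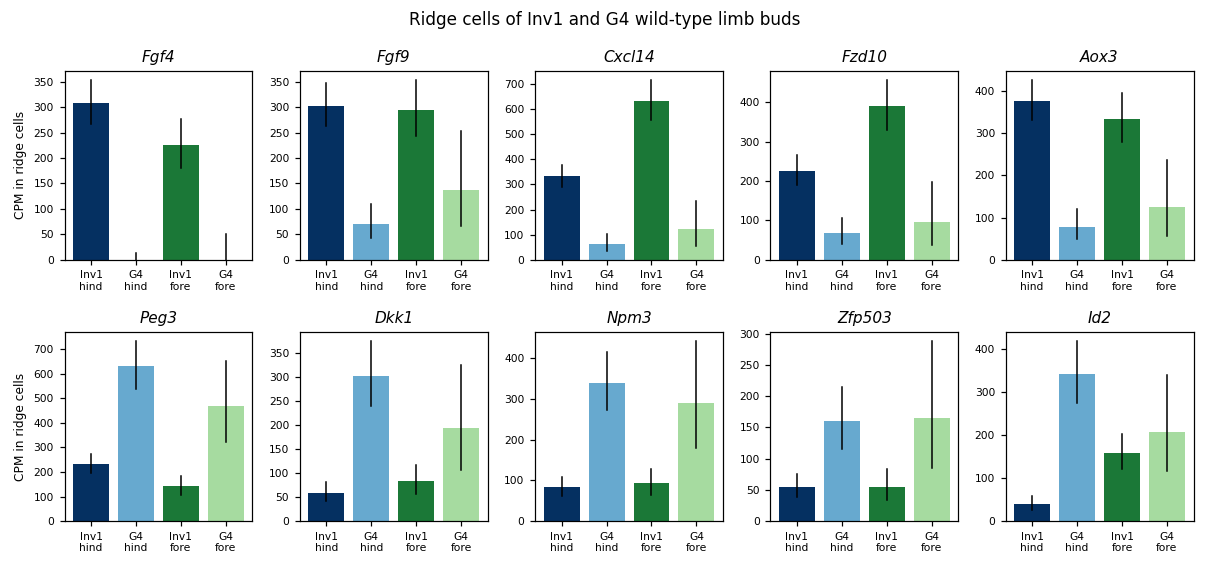
Ridge level in CPM of 10 genes in Inv1 and G4 wild-type hindlimbs and forelimbs, with bars for the level of 1 library each and lines for the exact 95% Poisson interval. Fgf4 stands at 309 and 225 CPM in the Inv1 bars and at 0 in both G4 bars, and Id2 is the panel where only the hindlimb bars differ widely.

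Since Fgf4 and Fgf3 were found in the Inv1 ridge and not in the G4 ridge, and the WNT inhibitor gene Dkk1 was lower in both limbs, the 250 bases before the start of these genes are shown, read from RefSeq on build GRCm38.p6 in the direction of transcription. Of 19 ridge genes looked up by symbol, 10 had an entry. Capitals mark the exact letters of a GC box (GGGCGG), a TCF/LEF core (CTTTGA) or a TATA box (TATAAA) on either strand. The Fgf4 stretch is chr7:144861136-144861385 on the plus strand, that of Fgf3 is chr7:144838362-144838611 on the plus strand and that of Dkk1 is chr19:30549497-30549746 on the minus strand.
Fgf4: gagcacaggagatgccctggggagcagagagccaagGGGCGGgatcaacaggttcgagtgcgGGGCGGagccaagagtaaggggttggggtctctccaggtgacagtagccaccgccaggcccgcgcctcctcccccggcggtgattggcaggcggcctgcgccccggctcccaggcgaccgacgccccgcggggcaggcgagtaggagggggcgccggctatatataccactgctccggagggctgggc
Fgf3: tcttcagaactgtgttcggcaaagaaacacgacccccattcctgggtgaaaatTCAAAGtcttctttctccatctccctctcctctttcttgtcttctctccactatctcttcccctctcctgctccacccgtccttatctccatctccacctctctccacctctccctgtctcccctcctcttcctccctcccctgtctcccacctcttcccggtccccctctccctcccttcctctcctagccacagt
Dkk1: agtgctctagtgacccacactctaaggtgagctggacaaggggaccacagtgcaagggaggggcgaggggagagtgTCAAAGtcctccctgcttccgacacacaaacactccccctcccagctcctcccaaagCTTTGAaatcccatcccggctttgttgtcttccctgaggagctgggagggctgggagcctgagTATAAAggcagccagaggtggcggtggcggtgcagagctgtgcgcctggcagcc
The Fgf4 stretch held 2 GC boxes, from 214 to 209 and from 188 to 183 bases before the start, and no TCF/LEF core. The Fgf3 stretch held 1 TCF/LEF core on the reverse strand (197 to 192), and the Dkk1 stretch held 1 on each strand (117 to 112 forward, 174 to 169 reverse) with a TATA box from 54 to 49 bases before the start. Among 32851 stretches of the same length, 32.7% held a GC box, 13.8% a TCF/LEF core and 12.4% a TATA box, so that each match was common.

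Among WNT receptors and antagonists, 7 of 17 were measured and 1 had a mean of both limbs above 0, beside 1174 of 2595 over all genes. This was Fzd10, which was 2-fold or more higher in both limbs. The limbs differed, with list medians of 0.11 in hindlimbs and -0.62 in forelimbs, the latter on 10 G4 cells. Dkk1 was 2-fold or more lower by the mean of both limbs, and 0 of 5 measured ligands were 2-fold apart by it. Fzd10, a WNT receptor, had 226 CPM in Inv1 against 66.9 CPM in G4 hindlimbs (3.38, 2.06 to 5.85) and 390 CPM in Inv1 against 96.4 CPM in G4 forelimbs (4.05, 1.92 to 10.2). After thinning, ectoderm cells with Fzd10 were 15 of 95 in Inv1 against 4 of 64 in G4 hindlimbs. In forelimb ectoderm they were 17 of 45 against 4 of 24. Mesenchyme shares were 5.33% against 6% in hindlimbs and 9% in both forelimbs. Fzd10 was not counted with cells of over 3000 genes or with 100 CPM added. Dkk1 had 58.7 CPM in Inv1 against 301 CPM in G4 hindlimbs (0.195, 0.130 to 0.289) and 82.6 CPM in Inv1 against 193 CPM in G4 forelimbs (0.429, 0.222 to 0.870), and in the hindlimb mesenchyme it was lower as well (0.266). The ligand Wnt10b, below the level limit, had 73 UMIs in Inv1 against 7 in G4 hindlimbs (4.23, 1.95 to 10.9) and 33 in Inv1 against 0 in G4 forelimbs, at least 2.06-fold higher. The targets were uneven between limbs. Axin2 was at 2.98 (1.90 to 4.89) in hindlimbs and 1.07 (0.603 to 2.05) in forelimbs, and Notum had 235 CPM in Inv1 against 152 CPM in G4 hindlimbs and 318 CPM in Inv1 (123 UMIs) against 27.5 CPM in G4 forelimbs (2 UMIs). Of 5 measured WNT targets, 2 were above 0 by the mean of both limbs, with list medians of 0.20 in hindlimbs and -0.09 in forelimbs.

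Of 4 measured BMP response genes, Id2 and Id3 were 2-fold or more lower in the Inv1 hindlimb ridge and none in the forelimb ridge. The helix-loop-helix inhibitor gene Id2 had 40.6 CPM in Inv1 against 342 CPM in G4 hindlimbs (0.119, 0.0744 to 0.184) but 158 CPM in Inv1 against 206 CPM in G4 forelimbs (0.763, 0.428 to 1.45). Id3 had a ratio of 0.382 (0.307 to 0.475) in hindlimbs and 1.40 (0.95 to 2.15) in forelimbs, and Id1 one of 0.522 (0.401 to 0.681) and 1.15 (0.743 to 1.85). Smad7, which encodes an inhibitory Smad, was at 0.727 (0.485 to 1.11) and 0.750 (0.403 to 1.5). The list of 4 measured genes had a median of -1.01 in hindlimbs and -0.07 in forelimbs, on 10 G4 cells in the forelimb, and the difference between limbs was not tested. In the hindlimb ectoderm Id2 was lower by less (0.572, 0.437 to 0.748), and in hindlimb mesenchyme it was at 0.874. The ligand list did not follow, with medians of 0.36 and 0.12.

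Other genes that differed in both limbs had no common role. Cxcl14 had 333 CPM in Inv1 against 63.2 CPM in G4 hindlimbs (5.27, 3.22 to 9.21) and 633 CPM in Inv1 against 124 CPM in G4 forelimbs (5.11, 2.65 to 11.3). It was higher by less in the ectoderm (1.45 and 1.65) and the mesenchyme (1.52 and 1.81) of the same libraries. Of other genes that were higher in ectoderm than in ridge, the Inv1 ridge held Tfap2b at 4.52 and 0 CPM, Bhlha9 at 1.51 and 2.58 CPM, Wnt7b at 1.51 and 5.16 CPM and Krt14 at 7.53 and 25.8 CPM in hindlimbs and forelimbs. The ridge gene Aox3 was at 4.82 (3.09 to 7.93) in hindlimbs and 2.69 (1.37 to 6.01) in forelimbs. Like Fzd10, Aox3 was not counted with cells of over 3000 genes or with 100 CPM added. The early growth response gene Egr1, at 3.02 and 2.21, was higher by as much in mesenchyme (3.22 and 3.28), so that its difference was not limited to the ridge.

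Peg3, a paternally expressed zinc finger gene, led the lower genes outside the locus. It had 232 CPM in Inv1 against 632 CPM in G4 hindlimbs (0.367, 0.293 to 0.459) and 142 CPM in Inv1 against 468 CPM in G4 forelimbs (0.303, 0.194 to 0.480), with smaller differences in ectoderm (0.800 and 0.900) and mesenchyme (0.784 and 0.672). The Dup ridge also had less Peg3, with 249 CPM in Dup against 539 CPM in C57BL/6 (0.463, 0.312 to 0.674), and so had the Dup mesenchyme (0.589). Zim1, its imprinted neighbour, was lower too, at 0.420 and 0.231. The transcriptional repressor gene Zfp503 (0.339 and 0.328) and Skil, an inhibitor of TGF-beta signalling (0.338 and 0.290), completed the group. Zfp503 lay at the 2-fold limit and was not counted once ridge cells with fewer than 3 of the 5 markers were left out, where Dkk1 was counted in its place and Aox3 was not counted among the higher genes. With the hindlimb pair alone, 18 genes were higher and 12 lower, all 10 genes counted in both limbs among them.

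Dup and C57BL/6 hindlimb ridges, 25 and 16 cells, were compared to ask what the duplication changes in the ridge. The Dup ridge held less Ebf1, Cyp26b1, Sfrp2 and Hoxd11 and more Lbx1, Btrc, Clu and Meg3. The 4 wild-type cells with mesenchyme markers held 56.6% of the wild-type ridge UMIs of all genes. Of the 10 genes that led on the lower side, Cyp26b1 had 34.6% of its wild-type UMIs in them. The others had from 71.9% (Sfrp2) to 100% (Gsc) there. Of 3095 genes, 37 were 2-fold or more higher in Dup (1.2%) and 26 lower (0.84%), and without the cells that held 10 or more mesenchyme markers, which left 24 Dup and 12 wild-type cells, 35 were higher and 79 lower, of which 16 and 6 were counted before. Lbx1 and Btrc of the duplicated segment led the 37, with log2 ratios of 1.89 and 1.83. Ebf1 had 19.2 CPM in Dup against 254 CPM in C57BL/6 (0.0754, 0.0151 to 0.234), but 48 of its 50 wild-type UMIs lay in those 4 cells. The same 4 cells held 95% of the wild-type UMIs of Hoxd11, 100% of Gsc, 90.5% of Lgals1 and 85.8% of Nnat. Without them the log2 ratio was -0.06 for Ebf1 and Nnat and 0 for Gsc, and it turned to 0.06 for Lgals1.

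**Figure D4:**
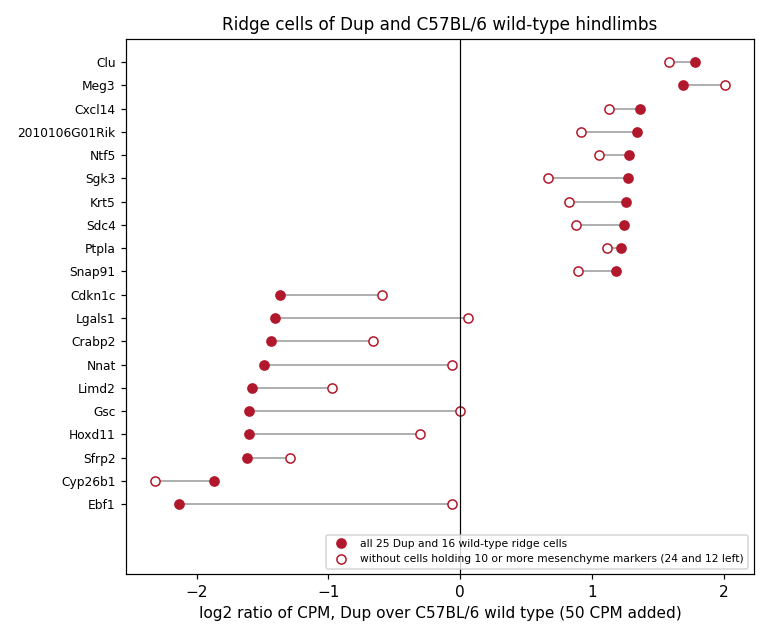
Log2 ratio of Dup to C57BL/6 wild type in ridge cells (50 CPM added) for the 10 highest and 10 lowest genes outside the rearranged locus, with all ridge cells (filled) and without cells that hold 10 or more mesenchyme markers (open). The open points of Ebf1, Gsc, Nnat and Lgals1 lie at or within 0.06 of 0, and those of Cyp26b1 and Clu stay at -2.32 and 1.58.

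Of the genes counted with all ridge cells, 16 higher and 6 lower kept a 2-fold difference without the mixed cells. Among the lower genes counted only without them were Fgf8, Fzd10, Cdh1 and Cldn6, which were picked from a longer list. That setting rests on 24 Dup and 12 wild-type cells. With all ridge cells none of these genes was counted, and the paper reports unchanged Fgf8 expression in Dup. Cyp26b1, which encodes an enzyme that degrades retinoic acid, had 0 UMIs in Dup against 26 UMIs in C57BL/6 (132 CPM, 9 of 16 cells), at least 6.89-fold lower in Dup, and 0 against 17 UMIs without the 4 cells. Sfrp2, a secreted WNT modulator, had 3 UMIs in Dup against 32 in C57BL/6 (0.118, 0.0231 to 0.377), and its log2 ratio was -1.29 without them. On the higher side, Clu, which encodes the chaperone clusterin, had 192 CPM in Dup against 20.3 CPM in C57BL/6 (9.43, 3.32 to 36.8), and the imprinted RNA Meg3 had 275 CPM in Dup against 50.9 CPM in C57BL/6 (5.41, 2.68 to 12.1). Their log2 ratios were 1.58 and 2.01 without the mixed cells. In the mesenchyme of the same libraries the ratios were 1.33 for Clu, 0.780 for Meg3, 0.882 for Cyp26b1 and 0.691 for Sfrp2. Cxcl14, higher in the Inv1 ridge, had 249 CPM in Dup against 66.1 CPM in C57BL/6 (3.77, 1.97 to 7.70), with 1.16 in mesenchyme. Krt5 was at 3.91 (1.79 to 9.42), on 28 UMIs in Dup against 9, and at 0.83 on the log2 scale without the mixed cells.

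The medians of the fixed lists in Dup ran from -0.55 to 0.60 on the log2 scale. Of 10 measured ridge transcription factors 9 were above 0 and 1, En1, was 2-fold or more higher, with a list median of 0.58, beside -0.01 over all genes. En1 was no longer counted without the mixed cells, with the mean over cells or with 100 CPM added. The median was -0.07 for the 3 measured ridge FGFs, 0.13 for 5 WNT targets and -0.22 for 4 BMP response genes. It was 0.60 for Fgf8 and the 5 ridge markers together, 0.46 for 3 WNT ligands and R-spondins and 0.38 for 10 epithelial genes. The S phase and G2/M lists had medians of -0.21 and -0.28. Of 8 measured mesenchyme markers 3 were above 0, with a median of -0.55, and the mixed cells were picked by markers of this list. The 4 mixed wild-type cells held 56.6% of the wild-type ridge UMIs, and no list median in Dup was recomputed without the mixed cells.

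The last comparison set the forelimb ridge beside the hindlimb ridge, in G4 and in Inv1. Of 2647 genes, 0 were 2-fold or more higher in the forelimb in both genotypes (0%) and 2 were lower (0.0756%), the Hox genes Hoxa9 and Hoxa7. Hox genes give cells their position along the body axis, and the hindlimb forms further back. In G4, 1 UMI of Hoxa9 was found in the forelimb ridge (13.8 CPM) against 45 UMIs in the hindlimb ridge (167 CPM), a ratio of 0.0823 (0.00204 to 0.483). In Inv1 there was 1 UMI in the forelimb ridge (2.58 CPM) against 108 UMIs in the hindlimb ridge (163 CPM), a ratio of 0.0159 (0.000399 to 0.0904). Hoxa9 was also at 166 CPM in the hindlimb ridge of Dup and 168 CPM in that of C57BL/6, so that all 4 hindlimb libraries lay within 163 to 168 CPM.

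The contrast was shared by the ectoderm and not seen in the mesenchyme. In the ectoderm Hoxa9 stood at 11.3 CPM in G4 and 8.78 CPM in Inv1 forelimbs, against 266 CPM in G4 and 234 CPM in Inv1 hindlimbs. In the mesenchyme it stood at 180 CPM in G4 and 157 CPM in Inv1 forelimbs, against 137 CPM in G4 and 158 CPM in Inv1 hindlimbs. Hoxa7 followed in the ridge with 13.8 CPM (1 UMI) in G4 and 0 in Inv1 forelimbs, against 119 CPM in G4 and 110 CPM in Inv1 hindlimbs, which made the Inv1 forelimb at least 14.2-fold lower. In the mesenchyme Hoxa7 was at 13.4 to 22.8 CPM in all 6 libraries. The ridge of hindlimbs, with 110 to 154 CPM, held more Hoxa7 than the mesenchyme below it in every hindlimb library.

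**Figure D5:**
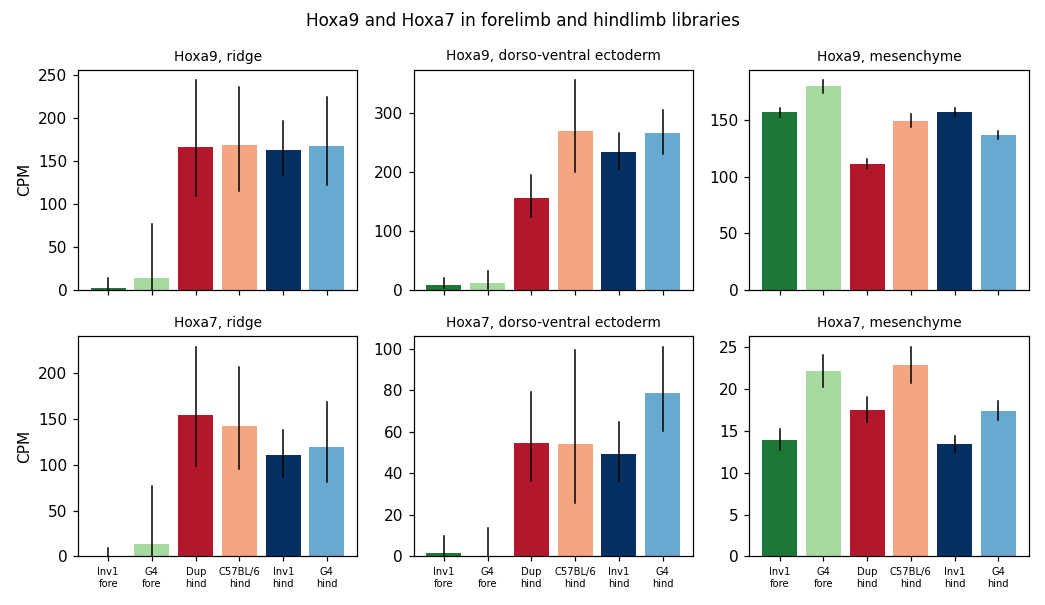
Level in CPM of Hoxa9 and Hoxa7 in the ridge, the dorso-ventral ectoderm and the mesenchyme of the 6 libraries, forelimbs left of hindlimbs, with exact 95% Poisson intervals as lines and axes that differ between panels. In ridge and ectoderm the forelimb bars lie at 13.8 CPM or lower and every hindlimb bar at 49.2 CPM or higher, and in mesenchyme the forelimb and hindlimb bars overlap.

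No other gene was 2-fold apart in both genotypes, and the G4 side rests on 10 forelimb cells. Vwde led on the forelimb side, with 165 CPM in G4 forelimbs against 63.2 CPM in hindlimbs (2.62, 1.14 to 5.81) and 243 CPM in Inv1 forelimbs against 111 CPM in hindlimbs (2.18, 1.59 to 3.00). Mgst3, a glutathione transferase and one of the 16 genes above all other classes, was lower in forelimbs (0.268, 0.131 to 0.494 in G4 and 0.560, 0.463 to 0.674 in Inv1), as was the hormone gene Sct (0.517 and 0.612). Fgf4 had a forelimb ratio of 0.728 (0.560 to 0.940) in Inv1 and 0 UMIs in both G4 limbs. Of 11 measured ridge transcription factors 8 were above 0 by the mean of both genotypes, with a list median of 0.18 beside 0.03 over all genes. With the Inv1 pair alone, 2 genes were higher in the forelimb, Id2 and Id3, which are those that were low in the Inv1 hindlimb ridge.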

How the data were processed

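UMI counts per gene and cell were deposited by the authors as 2 matrices, 1 with Dup and C57BL/6 cells and 1 with G4 and Inv1 cells. Per the labels and the methods, cells were dissociated with trypsin, libraries were single replicates processed jointly, and counts came from Cell Ranger 3 with a custom mm9 genome (the submitters' notes also name mm10). The authors kept cells by detected genes and a doublet score, and no further doublets were removed here. The matrices hold 15668 genes in common and 0 mitochondrial gene rows, and 14527 identifiers have a unique symbol. Cells with over 2000 detected genes were used, with the authors' class labels. The 17 further columns of per-cell values in the annotation were not used.

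UMIs were summed per class and library and scaled to CPM over the common genes. Genes with a mean of 50 CPM or more over the sums compared were ranked by log2 ratio with 50 CPM added, and a call needed 2-fold in every library or pair. The text names the leading genes of each ranking, with 15 higher and 10 lower for ridge over ectoderm, 15 for ridge over the highest other class, 10 each way for both mutants (without the 6 genes of the locus), 8 each way for limbs, 10 for variation and 20 for abundance, and members of 28 gene lists (291 genes). Members and lists were chosen with earlier results of these data known. Without replicates no test was run. Ratios against 0 counts used a floor of 3 counts per library. Shares of cells were recomputed after thinning to 4000 UMIs. Alternatives were other limits on detected genes, pseudocounts, filters, scaling, the mean over cells, the hindlimb annotation and leaving out mixed cells. Scripts were tested on simulated data and ran in Python 3.11.15 with numpy 2.4.6, scipy 1.17.1, pandas 2.3.3 and matplotlib 3.10.9.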

Additional observations from a re-analysis of the deposited data

Results flagged for a closer look

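Fgf3 lay outside the comparisons, since it was read only in the matrix of G4 and Inv1 cells, and it was picked out because it had UMIs in the mutant ridge and none in the wild type. It had 39 UMIs in the ridge of Inv1 hindlimbs (58.7 CPM) against 0 in G4 hindlimbs, and 10 UMIs in the ridge of Inv1 forelimbs (25.8 CPM) against 0 in G4 forelimbs. A count of 0 in the 10 G4 forelimb cells limits the level little.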

How the results depend on the processing

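No paired analysis was possible because every group was 1 library and the groups share fewer than 2 replicate numbers. Of 92 recomputed counts of genes 62 stayed within 1.5 times the reported count, 478 of 522 list medians moved by less than their spread over libraries or pairs, and 848 of 904 log2 ratios of named genes by less than the spread over libraries or the counting interval. That interval is wide for low genes and without limit where 1 side had 0 counts, as for Fgf4 in Inv1, so that it says little of those genes. The cause of the others was not tested unless stated.
With cells of over 3000 detected genes, which left 2 Dup and 7 C57BL/6 ridge cells, 20 genes were higher in the ridge than in ectoderm, Inv1 had 11 higher and 7 lower, Dup had 627 higher and 238 lower, and Ntf5 and Ptpla turned to -0.19 in Dup.
With 10 CPM added, 66 genes were higher and 17 lower in the ridge, 42 exceeded all other classes, Inv1 had 11 higher and 8 lower, Dup had 152 higher and 132 lower, and 1 was higher in forelimbs. With 100 CPM added, the ridge had 17 higher and 5 lower, 7 exceeded all other classes, Dup had 6 higher and 11 lower, and 1 was lower in forelimbs. A filter of 20 CPM and no filter both gave 10 higher genes in Inv1 and 1 in forelimbs.
Under median-of-ratios scaling 2 genes were lower in Inv1, Npm3 and Zfp503 no longer being counted. That scaling moved the median of all genes by 0.23 for Inv1 over G4 forelimbs, by -0.28 for G4 forelimb over hindlimb and by -0.16 for the G4 forelimb ridge over ectoderm, and by at most 0.09 elsewhere. The mean over cells gave 47 lower genes in Dup.
Without ridge cells holding 10 or more mesenchyme markers, 26 genes exceeded all other classes, 79 were lower in Dup and Lgals1 turned to 0.056 in Dup. Chosen after seeing the data, the hindlimb pair alone gave 18 higher and 12 lower genes in Inv1, and the Inv1 pair alone 2 higher genes in forelimbs. Depth limits most the G4 forelimb ridge, where 1 UMI is 13.8 CPM.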
